A study of Homo sapiens with 4 samples.

Results

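The genes described here are a group of DNA repair genes that serve mismatch repair, base excision and single-strand break repair, replication protein A, end joining, the damage kinases, the MRN complex, homologous recombination, the Fanconi anemia core and translesion synthesis. They were chosen by name. Every probe set whose platform annotation gave 1 of 37 listed symbols and no other symbol was taken, which gave 57 probe sets for 34 genes out of 11963 genes with such a probe set. PMS2 was named only by 2 probe sets that also carry PMS2CL, so no value is given for it, and BRCA2 and FANCA were not analysed here. Signals came from 4 oligonucleotide arrays with 1 array per group: SUP-B15 after 16 h with 10 μmol/l STI571, untreated SUP-B15, BV-173 after the same treatment, and untreated BV-173. SUP-B15 and BV-173 are established human B cell precursor lines of Philadelphia chromosome-positive leukemia, so all 4 groups carry the BCR-ABL1 fusion, and STI571 (imatinib) inhibits its kinase. Each group was a single array, with no replicate, so precision is limited by having 4 arrays in all. The series' title concerns activation-induced cytidine deaminase as a mutator, and mismatch and base excision repair act on the uracils that this enzyme makes.

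Cells repair DNA by several routes that share parts. Mismatch repair corrects misplaced bases left by the replication polymerases, base excision repair removes single damaged bases such as uracil, and breaks of both strands are closed either by end joining, which ligates the ends directly, or by homologous recombination, which copies the sister chromatid. In B lineage cells mismatch and base excision repair process deaminated cytosine, and end joining closes the breaks made during assembly of antigen receptor genes. ATM and ATR sense damage and stalled forks, and many genes of replication-coupled repair are transcribed most in S phase.

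Whole-array measures differed little except in 1 control. The median signal of the 22277 probe sets was 107 in treated and 115 in untreated SUP-B15, and 108 in treated and 95.5 in untreated BV-173. The mean signal of 3 control probe sets for 18S ribosomal RNA was 2817 in treated BV-173 and between 1513 and 1596 in the other arrays, so responses of BV-173 are given throughout beside those of SUP-B15, which do not use that array. Of 11 fixed B precursor markers, 9 had a probe set, all 9 reached their array's median in at least 1 array, and their summed signal was 81183 in treated and 60002 in untreated SUP-B15, and 38512 in treated and 21241 in untreated BV-173. The summed signals of the T cell, NK cell, myeloid, erythroid and megakaryocyte markers lay between 81.7 and 455 in every array.

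All 34 genes passed the filter on dim probe sets through at least 1 probe set, as did 7916 genes in all, and 52 of their 57 probe sets did. The brightest stood for the gene. Changes are differences of log2(signal + 24.5), where 24.5 is the 25th percentile of all signals. Folds are given on the same scale, which understates the change of dim genes. A response is the treated minus the untreated array of 1 line and has no test of its own. The mean of both responses and the difference between the lines were tested in 1 limma fit over all 7916 genes, whose errors come from the trend of the spread with brightness. A gene is called at an adjusted p under 0.05.

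**Figure D1:**
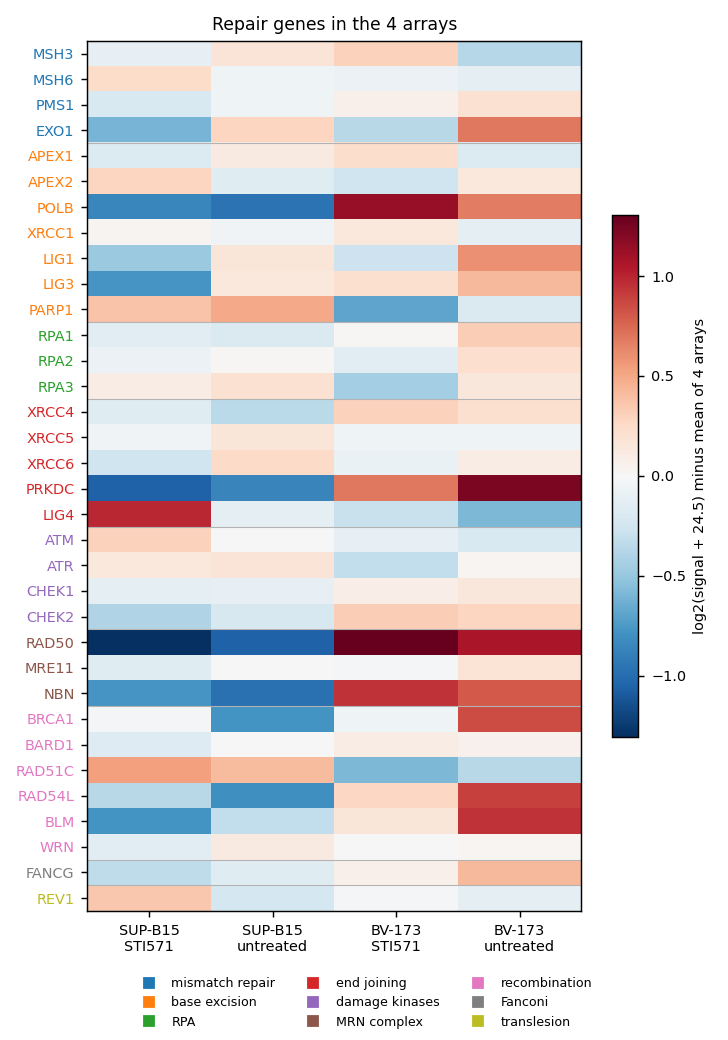
The heat map shows log2(signal + 24.5) of 34 repair genes in each of the 4 arrays, as the difference from the gene's own mean over the arrays, with genes grouped and coloured by pathway. RAD50, NBN, PRKDC and POLB separate SUP-B15 (blue) from BV-173 (red), whereas EXO1 and LIG1 are lower in the treated than in the untreated array of each line.

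The first question was whether the repair genes responded to STI571. None of the 34 was called (limma, adjusted p under 0.05), where 3.02% of all genes tested were, and 3 of them had an unadjusted p under 0.05 (8.82%, against 12.3% of all genes): EXO1, LIG1 and BLM, each lower in the treated array of both lines. Lower signals after STI571 in both lines were found for 16 of 34 repair genes (47.1%), XRCC5 among them with a BV-173 response near 0, against 26.5% of all genes tested. Higher signals in both lines were found for 8 (23.5%, against 28.8% of all genes), and 10 had responses of opposite sign. In bulk RNA, fewer cells of a kind and less RNA per cell cannot be told apart. The median response of the repair genes was −0.11 in SUP-B15 and −0.16 in BV-173, against −0.01 in SUP-B15 and 0.05 in BV-173 over all genes. Scaling the arrays to a common median moved the median of all genes by 0.10 in SUP-B15 and −0.16 in BV-173. Relative to all genes, the repair genes' median was then −0.09 in SUP-B15 and −0.22 in BV-173, and on the deposited scale −0.10 in SUP-B15 and −0.21 in BV-173. That scaling left 14 repair genes lower in both lines (41.2%, against 27.9% of all genes) and 3 higher in both (8.82%, against 25.7% of all genes).

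A change of at least 2-fold was rare in either line. In SUP-B15 1 gene, LIG4, was 2-fold higher, where 4.08% of all genes were, and none was 2-fold lower, where 5.68% were. In BV-173 none of the 34 genes was 2-fold higher, where 6.91% of all genes were, and 1, EXO1, was 2-fold lower, where 4.6% of all genes were. At 1.5-fold the counts were 5 of 34 genes in SUP-B15, where 26.1% of all genes were, and 7 in BV-173, where 27.2% of all genes were.

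**Figure D2:**
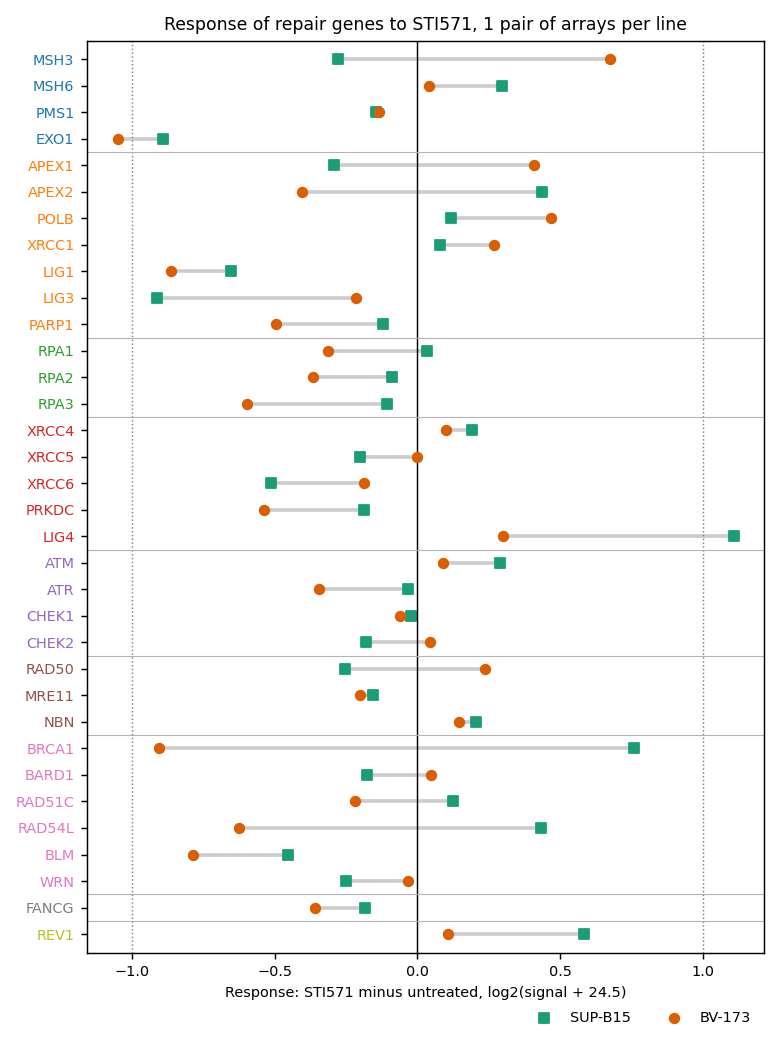
The plot gives for each of 34 repair genes the response to STI571, as treated minus untreated log2(signal + 24.5), in SUP-B15 (squares) and BV-173 (circles), with 1 pair of arrays per line and dotted lines at 2-fold. EXO1, LIG1 and BLM lie left of 0 in both lines, BRCA1 has its responses on opposite sides at 0.76 in SUP-B15 and −0.91 in BV-173, and only EXO1 in BV-173 and LIG4 in SUP-B15 pass 2-fold.

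In mismatch repair, the exonuclease EXO1 stood apart from the factors that recognise mismatches. EXO1, which digests the strand that carries the error, had signals of 200.4 in treated and 392 in untreated SUP-B15, and 244 in treated and 529.9 in untreated BV-173. Both treated arrays lay below both untreated ones. Its responses were −0.89 in SUP-B15 and −1.05 in BV-173, a mean change of −0.97 (SE 0.31) that missed the threshold at an adjusted p of 0.0528. The call was met after quantile normalization (adjusted p = 0.0435) and with a pseudocount of 98 (0.0407), within a range of 0.0407 to 1.0 over the alternatives. MSH6, the mismatch-recognising partner in the main sensor complex, had 10878 in treated and 8859 in untreated SUP-B15, and 8704 in treated and 8464 in untreated BV-173, with responses of 0.30 in SUP-B15 and 0.04 in BV-173. MSH3, which directs the sensor to small loops, had 330.3 in treated and 405 in untreated SUP-B15, and 448 in treated and 271 in untreated BV-173. Its responses of −0.28 in SUP-B15 and 0.67 in BV-173 were the third furthest apart of the repair genes, and its second probe set gave 0.30 in SUP-B15 and 0.19 in BV-173. PMS1, a MutL homologue, had responses of −0.14 in SUP-B15 and −0.14 in BV-173. None of these 4 genes was called between the lines, with line differences (SUP-B15 minus BV-173) from −0.33 for EXO1 to 0.19 for MSH6.

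The promoters of EXO1 and LIG1, the genes with the lowest mean changes, are printed here beside that of MSH6, which had no such change, because all 3 hold a match to the letters commonly bound by E2F factors. The sequences are RefSeq's (GRCh38.p14), 250 bases before to 50 after a gene start, printed 5′ to 3′ on the gene's strand, with the match in capitals. EXO1 is at chr1:241847954-241848253 on the plus strand, LIG1 at chr19:48170295-48170594 on the minus strand and MSH6 at chr2:47782895-47783194 on the plus strand.
EXO1: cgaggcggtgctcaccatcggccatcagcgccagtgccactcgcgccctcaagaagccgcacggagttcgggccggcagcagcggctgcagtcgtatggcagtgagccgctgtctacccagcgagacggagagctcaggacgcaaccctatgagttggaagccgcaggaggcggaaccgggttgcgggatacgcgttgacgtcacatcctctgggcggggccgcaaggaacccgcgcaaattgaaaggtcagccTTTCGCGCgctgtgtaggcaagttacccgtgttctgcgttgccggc
LIG1: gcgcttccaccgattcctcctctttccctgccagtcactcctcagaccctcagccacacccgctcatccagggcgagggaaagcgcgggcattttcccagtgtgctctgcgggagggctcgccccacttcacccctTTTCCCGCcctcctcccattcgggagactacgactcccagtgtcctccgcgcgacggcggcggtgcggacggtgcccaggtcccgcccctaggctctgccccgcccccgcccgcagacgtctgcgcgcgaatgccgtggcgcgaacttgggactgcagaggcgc
MSH6: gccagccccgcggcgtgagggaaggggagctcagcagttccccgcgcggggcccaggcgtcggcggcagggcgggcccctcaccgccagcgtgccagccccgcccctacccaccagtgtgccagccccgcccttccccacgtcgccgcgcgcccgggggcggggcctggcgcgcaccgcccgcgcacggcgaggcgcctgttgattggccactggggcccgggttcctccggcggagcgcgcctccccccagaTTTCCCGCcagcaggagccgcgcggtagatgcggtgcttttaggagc

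The E2F letters searched on both strands were TTTCCCGC, TTTCGCGC, TTTGCCGC and TTTGGCGC. The match covers bases 255 to 262 of 300 in EXO1, 137 to 144 in LIG1 and 254 to 261 in MSH6. EXO1 has 2 such windows and MSH6 has 4, for different starts, and the match lies in 1 of them. Among the 35116 windows listed, 3.31% hold one. By gene, 7.07% of the 6549 tested genes with a window do, and 5 of the 27 repair genes with a window: EXO1, LIG1, MSH3, MSH6 and XRCC6. Of these 5, EXO1, LIG1 and XRCC6 were lower in both treated arrays than in their untreated partners, MSH6 was higher in both, and MSH3 had responses of opposite sign. BLM, the third gene by mean change, has no match to the E2F letters in its window. The letters CCAAT were also searched. They matched in 16 of the 27 repair genes (59.3%), BLM among them, against 45.1% of tested genes with a window. A match is a description of the letters and no evidence of binding.

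In base excision and single-strand break repair, the ligases had lower signals after treatment and POLB differed most between the lines. LIG1, the ligase of replication and of long-patch repair, had 158 in treated and 262 in untreated SUP-B15, and 188 in treated and 362 in untreated BV-173. Both treated arrays lay below both untreated ones, with responses of −0.65 in SUP-B15 and −0.86 in BV-173 and a mean change of −0.76 (SE 0.36, adjusted p = 0.331). LIG3, the ligase that works with XRCC1, had 147 in treated and 298 in untreated SUP-B15, and 314 in treated and 368 in untreated BV-173, with responses of −0.91 in SUP-B15 and −0.21 in BV-173 and a mean change of −0.56 (SE 0.33, adjusted p = 0.544). Its probe sets disagreed, since the second gave −0.19 in SUP-B15 and 0.54 in BV-173. XRCC1, the scaffold of this repair, had responses of 0.08 in SUP-B15 and 0.27 in BV-173. APEX1, the endonuclease that cuts at abasic sites, had responses of −0.29 in SUP-B15 and 0.41 in BV-173. The related APEX2 had the opposite signs, with signals of 285 in treated and 204 in untreated SUP-B15, and 188 in treated and 257 in untreated BV-173 and responses of 0.44 in SUP-B15 and −0.40 in BV-173.

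POLB, the polymerase that fills the gap left by base removal, was called lower in SUP-B15. Its signals were 1184 in treated and 1088 in untreated SUP-B15, against 4772 in treated and 3443 in untreated BV-173, so the lines did not overlap. The line difference was −1.81 (SE 0.21, adjusted p = 1.07e-16), which is 3.52-fold lower in SUP-B15. Its responses to STI571 were 0.12 in SUP-B15 and 0.47 in BV-173, with the third highest mean change of the repair genes at 0.29 (SE 0.21), which was not called (adjusted p = 0.674). PARP1, the sensor of strand breaks that makes poly(ADP-ribose), was called higher in SUP-B15. It had 4319.9 in treated and 4697 in untreated SUP-B15, against 2056 in treated and 2911 in untreated BV-173. The difference of 0.87 (SE 0.20, adjusted p = 1.54e-04) is 1.83-fold higher. This call ended without the intensity trend (adjusted p = 0.119). The other 5 genes of this route had line differences between −0.63 for LIG3 and 0.12 for APEX2, and none was called.

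The 3 subunits of replication protein A, which coats single-stranded DNA in replication and in most repair, had lower signals in treated than in untreated BV-173. RPA3, the smallest subunit, had 1668 in treated and 1798 in untreated SUP-B15, and 1141 in treated and 1738 in untreated BV-173, with responses of −0.11 in SUP-B15 and −0.60 in BV-173 and a mean change of −0.35 (SE 0.21, adjusted p = 0.56). The large subunit RPA1 had responses of 0.03 in SUP-B15 and −0.31 in BV-173, and its second probe set gave −0.84 in SUP-B15 and −0.29 in BV-173. RPA2, the subunit phosphorylated on damage, had −0.09 in SUP-B15 and −0.37 in BV-173. In SUP-B15 all responses of the brightest probe sets lay within −0.11 and 0.03. No subunit was called for the line through its brightest probe set, but with each probe set tested by itself the second RPA1 probe set was called lower in SUP-B15 (−0.72, adjusted p = 0.00589).

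In end joining, LIG4 stood furthest out in its response and PRKDC in its line difference. LIG4, the ligase that seals the ends, had 359 in treated and 154 in untreated SUP-B15, and 134 in treated and 104 in untreated BV-173. The treated SUP-B15 array alone was more than 2-fold from the others on the deposited scale. Its responses were 1.11 in SUP-B15 and 0.30 in BV-173, with the highest mean change among the repair genes at 0.70 (SE 0.42), which was not called (adjusted p = 0.557). XRCC4, the partner that stabilises LIG4, had responses of 0.19 in SUP-B15 and 0.10 in BV-173 and a line difference of −0.51 (adjusted p = 0.233). A second XRCC4 probe set gave 0.24 in SUP-B15 and 0.31 in BV-173, with a line difference of −0.03. Another gave 0.51 in SUP-B15 and −0.43 in BV-173, with a line difference of −0.67. The Ku subunits XRCC5 and XRCC6, which bind the ends first, were nearly level between the lines, at 0.11 and −0.01. XRCC6 had responses of −0.51 in SUP-B15 and −0.19 in BV-173, and XRCC5 had −0.20 in SUP-B15 and none beyond the second decimal in BV-173.

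PRKDC, the catalytic subunit of the DNA-dependent protein kinase that Ku recruits, was called lower in SUP-B15. Its signals were 1777 in treated and 2026 in untreated SUP-B15, against 6022 in treated and 8744 in untreated BV-173. The line difference was −1.92 (SE 0.20, adjusted p = 3.00e-19), or 3.79-fold lower, and the second kept probe set gave −1.73. After STI571 its responses were −0.19 in SUP-B15 and −0.54 in BV-173, and the mean change of −0.36 (SE 0.20) was not called (adjusted p = 0.501).

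Through their brightest probe sets the damage kinases had responses between −0.35 for ATR in BV-173 and 0.29 for ATM in SUP-B15, and none was called. ATM, which responds to double-strand breaks, had 1322 in treated and 1076 in untreated SUP-B15, and 990.3 in treated and 929 in untreated BV-173, with responses of 0.29 in SUP-B15 and 0.09 in BV-173. A second probe set gave 0.32 in SUP-B15 and 0.04 in BV-173 and another −0.06 in SUP-B15 and −0.12 in BV-173. ATR, which responds to stalled forks, had −0.03 in SUP-B15 and −0.35 in BV-173. The second ATR probe set gave −0.03 in SUP-B15 and −0.52 in BV-173. CHEK1, the effector kinase of ATR, had −0.02 in SUP-B15 and −0.06 in BV-173. The second CHEK1 probe set gave −0.07 in SUP-B15 and −0.60 in BV-173. CHEK2, the effector of ATM, had −0.18 in SUP-B15 and 0.04 in BV-173 and a line difference of −0.61 that was not called (adjusted p = 0.0937).

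Of the MRN complex, which holds broken ends together and activates ATM, both RAD50 and NBN were called lower in SUP-B15, and MRE11 was not. RAD50, the coiled-coil tether, had 168 in treated and 205 in untreated SUP-B15, against 1148 in treated and 972 in untreated BV-173. Its difference of −2.36 (SE 0.27, adjusted p = 1.94e-16), or 5.14-fold lower, was larger in size than that of any other repair gene measured. The second RAD50 probe set gave −2.16, but read 50.4 in treated and 40.1 in untreated SUP-B15, below the medians of those arrays. It passed the filter only through BV-173, where it read 258 in treated and 317 in untreated cells, so it is no separate support. NBN, the subunit that binds ATM, had 879 in treated and 759 in untreated SUP-B15, against 2939.8 in treated and 2658 in untreated BV-173. The difference was −1.75 (SE 0.21, adjusted p = 1.20e-14), or 3.35-fold lower. The other 3 NBN probe sets gave −1.69, −0.90 and −0.34, all in the same direction but unequal in size. The last of these was not called when tested by itself (limma adjusted p = 0.262). MRE11, the nuclease, had 461 in treated and 517 in untreated SUP-B15, against 507 in treated and 586 in untreated BV-173, a difference of −0.15 (SE 0.26, adjusted p = 0.715). Through their brightest probe sets the responses to STI571 were −0.25 in SUP-B15 and 0.24 in BV-173 for RAD50. They were 0.21 in SUP-B15 and 0.14 in BV-173 for NBN, and −0.16 in SUP-B15 and −0.20 in BV-173 for MRE11. The other 3 NBN probe sets, in the order above, gave −0.01, 0.004 and 0.17 in SUP-B15, and 0.37, 0.44 and 0.03 in BV-173.

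The 2 repair genes whose responses differed most between the lines, BRCA1 and RAD54L, belong to homologous recombination. BRCA1, which acts with BARD1 as a ubiquitin ligase and promotes strand resection, had 267 in treated and 148 in untreated SUP-B15, and 261 in treated and 509.6 in untreated BV-173. It was higher in treated than in untreated SUP-B15 and lower in treated than in untreated BV-173. The responses of 0.76 in SUP-B15 and −0.91 in BV-173 differ by 1.66 (SUP-B15 minus BV-173), and with 1 array per group this difference was not tested. The second BRCA1 probe set gave 1.46 in SUP-B15 and 0.49 in BV-173, so the probe sets shared the direction in SUP-B15 and not in BV-173. BARD1 had −0.17 in SUP-B15 and 0.05 in BV-173. RAD54L, a translocase that helps strand invasion, had 118 in treated and 81.3 in untreated SUP-B15, and 198 in treated and 319 in untreated BV-173. Its responses also had opposite signs, at 0.43 in SUP-B15 and −0.63 in BV-173. BLM, a helicase that unwinds recombination intermediates, had 184 in treated and 261 in untreated SUP-B15, and 376 in treated and 666 in untreated BV-173, with responses of −0.45 in SUP-B15 and −0.79 in BV-173 and a mean change of −0.62 (SE 0.30, adjusted p = 0.366). The related helicase WRN had −0.25 in SUP-B15 and −0.03 in BV-173.

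Between the lines, BLM and RAD54L were called lower and RAD51C higher in SUP-B15. The 2 BLM signals of SUP-B15 lay below both of BV-173, with a difference of −1.11 (SE 0.30, adjusted p = 0.00156), or 2.15-fold lower, a call that ended without the intensity trend (adjusted p = 0.0795). RAD54L differed by −1.17 (SE 0.44, adjusted p = 0.0285), or 2.25-fold lower, with −0.64 in treated and −1.70 in untreated cells. Its call ended with no filter (0.106), without the treatment term of the fit (0.066) and without the trend (0.119). RAD51C, a recombinase paralogue that supports strand exchange, had 321 in treated and 292 in untreated SUP-B15, against 135 in treated and 161 in untreated BV-173. Its difference of 0.95 (SE 0.37, adjusted p = 0.0387), or 1.93-fold higher, was also called in 2 of the 9 alternatives in which the gene had a value, with a pseudocount of 98 and with each probe set tested by itself, and its adjusted p lay between 0.0344 and 0.253. The second RAD51C probe set gave a line difference of 0.19 and responses of −0.58 in SUP-B15 and −1.09 in BV-173. BRCA1 was not called for the line (−0.80, adjusted p = 0.0518), with 0.03 in treated and −1.63 in untreated cells.

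**Figure D3:**
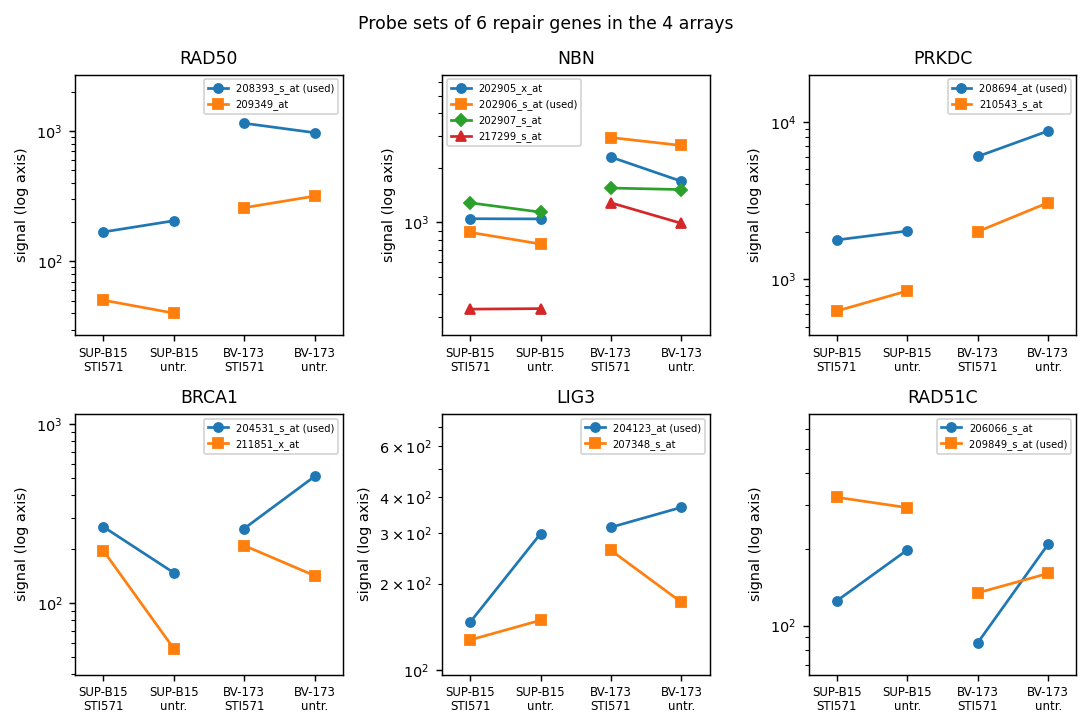
Each panel shows the signals of every kept probe set of 1 gene in the 4 arrays on a log axis, the lines joining the treated and untreated array of a cell line. Every probe set of RAD50, NBN and PRKDC is lower in SUP-B15 than in BV-173, whereas the probe sets of BRCA1 and LIG3 disagree on the response of BV-173 and those of RAD51C differ in the size of the line difference.

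FANCG, of the Fanconi anemia core complex that acts on interstrand crosslinks, had 439 in treated and 502 in untreated SUP-B15, and 588 in treated and 762 in untreated BV-173. Its responses were −0.18 in SUP-B15 and −0.36 in BV-173 and its line difference −0.49 (adjusted p = 0.141). REV1, a scaffold and polymerase of translesion synthesis, had 1022 in treated and 674 in untreated SUP-B15, and 787 in treated and 729 in untreated BV-173. The treated SUP-B15 array was the highest of the 4. The responses of 0.58 in SUP-B15 and 0.11 in BV-173 gave the second highest mean change, 0.34 (SE 0.24), which was not called (adjusted p = 0.655).

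Set side by side, the medians of the pathways with several genes lay between −0.21 and −0.02 in SUP-B15 and between −0.42 and 0.14 in BV-173. In SUP-B15 the median response was −0.21 for 4 mismatch repair genes, −0.12 for 7 base excision genes, −0.09 for 3 subunits of replication protein A, −0.19 for 5 end joining genes, −0.03 for 4 damage kinases, −0.16 for 3 MRN genes and −0.02 for 6 genes of recombination and its helicases. In BV-173 it was −0.05 for 4 mismatch repair genes, −0.21 for 7 base excision genes, −0.37 for 3 subunits of replication protein A, −0.01 for the damage kinases, 0.14 for MRN and −0.42 for recombination, and it was near 0 for end joining, whose median gene is XRCC5. The sign of these medians held under every alternative computed for mismatch repair in both lines, for base excision and end joining in SUP-B15, and for replication protein A, the damage kinases and recombination in BV-173. The others changed sign under at least 1 alternative.

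The second comparison asked how the lines differ over both treatments. Of the 34 repair genes 6 were called lower in SUP-B15 (17.6%, against 14.4% of all genes) and 2 higher (5.88%, against 14.4% of all genes), so the number of lower calls is close to the share over all genes. The median line difference was −0.15 for the repair genes and −0.04 for all genes. The calls of POLB, PRKDC, RAD50 and NBN were met under each alternative in which the gene had a value. With each probe set tested by itself, a gene counted as called through any of its probe sets. There 1 NBN probe set was not called (−0.34, limma adjusted p = 0.262). Without the intensity trend the limma adjusted p was 0.0337 for POLB, 0.03 for PRKDC, 0.0242 for RAD50 and 0.033 for NBN. With 1 array per group, none of the p-values for the line or for STI571 measures the spread between replicates of a group. In treated cells the difference was −1.99 for POLB, −1.75 for PRKDC, −2.61 for RAD50 and −1.71 for NBN, and in untreated cells it was −1.64 for POLB, −2.10 for PRKDC, −2.12 for RAD50 and −1.78 for NBN. The untreated values do not use the treated BV-173 array that stood apart in 18S signal. After quantile normalization or scaling to a common median 1 of 8 line calls was higher in SUP-B15 (12.5%), against 2 of 8 (25%) on the deposited scale.

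**Figure D4:**
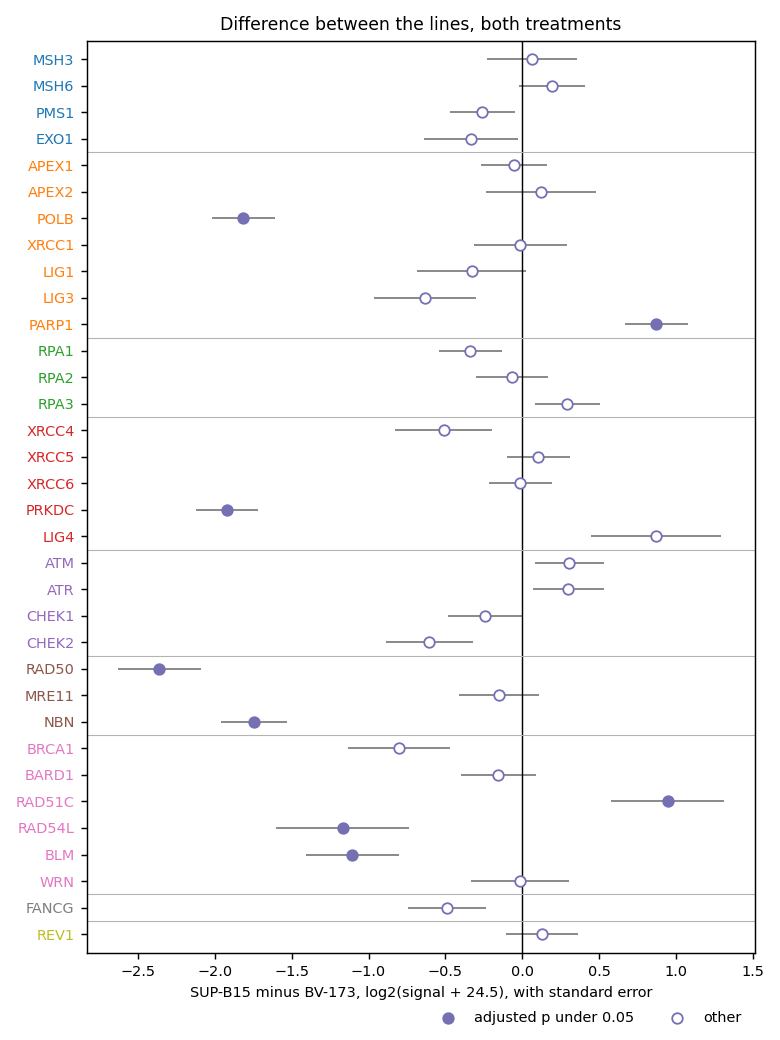
The plot gives the SUP-B15 minus BV-173 difference of log2(signal + 24.5) for 34 repair genes with its standard error from the limma fit, over both treatments, filled where the adjusted p was under 0.05. RAD50, PRKDC, POLB and NBN lie near or beyond −1.75, while PARP1 and RAD51C lie near 0.9.

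POLB, PRKDC and NBN share a chromosome, which the choice of genes did not use. In the RefSeq annotation of GRCh38.p14 these 3 and WRN lie on chromosome 8, so 3 of the 6 genes called lower come from it. Of 281 tested genes on chromosome 8, 92 were called lower in SUP-B15 (32.7%), and the share on the other autosomes was 4.83% to 37%. Along chromosome 8 the 93 tested genes that precede POLB, WRN among them, had a median line difference of 0.40, with 16.1% called lower and 35.5% higher. The 185 genes from there on, the 3 repair genes left out, had −0.48, with 40% called lower and 8.11% higher. The split at POLB was chosen after these values were seen. MCM4, a subunit of the replicative helicase and the next protein-coding gene after PRKDC, had 531 in treated and 1054 in untreated SUP-B15, against 2744 in treated and 5850.2 in untreated BV-173, a difference of −2.38 (SE 0.21, adjusted p = 1.68e-27). WRN itself differed by −0.01. RAD50, BLM and RAD54L lie on chromosomes 5, 15 and 1, where 11.1%, 14.5% and 11.1% of tested genes were called lower.

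Agreement between probe sets was higher for the line than for the treatment. Of 14 repair genes with more than 1 kept probe set, all kept probe sets had the same sign of the line difference in 13, of the response in SUP-B15 in 8 and of the response in BV-173 in 9. Among the 13 is RAD50, whose second probe set passed the filter only through BV-173, where it is higher. For ATM, BRCA1 and LIG3 the mean responses of their probe sets had opposite signs. The 5 probe sets that did not pass the filter belong to MSH6, XRCC4, XRCC6, PRKDC and MRE11, each of which has a brighter one.

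Other repair genes, taken from fixed lists, gave the setting of these values. Of all genes tested, 3.02% were called for STI571. Of 12 further mismatch and base excision genes with a value, 1 was called lower and none higher. That gene, the flap endonuclease FEN1, which trims flaps for LIG1 to seal, fell to 1033 in treated SUP-B15, against 1666 in untreated SUP-B15, and to 1004 in BV-173 with STI571, against 2016 in BV-173 without it (mean change −0.83, SE 0.22, adjusted p = 0.00725). Without the intensity trend, or without the cell line pairing, no gene of the 7916 was called for STI571 by limma, FEN1 included, with 658 genes without the trend and 70 without the pairing at an unadjusted p under 0.05. The uracil glycosylase UNG had responses of −0.88 in SUP-B15 and −1.05 in BV-173 (adjusted p = 0.102). Of 28 further genes of break repair, crosslink repair and the checkpoint none was called, with a median of 0.02 in SUP-B15 and −0.34 in BV-173. The polymerase POLQ of alternative end joining had −0.16 in SUP-B15 and −1.28 in BV-173 (adjusted p = 0.4). In nucleotide excision repair, which cuts out bulky lesions, none of 12 genes was called. In both treated arrays 6 were higher (50%, against 28.8% of all genes) and 1 was lower (8.33%, against 26.5% of all genes). The lesion-binding factor XPA had 0.37 in SUP-B15 and 0.79 in BV-173 (adjusted p = 0.303). Of 3 further translesion polymerase genes, REV3L, which encodes the catalytic subunit that REV1 recruits, had 0.96 in SUP-B15 and 0.34 in BV-173 (adjusted p = 0.102), and POLI differed between the lines by −2.01 (SE 0.28, adjusted p = 1.35e-11).

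The replication machinery, with which EXO1, LIG1 and BLM work at the fork, had lower medians after STI571. Of 28 replication genes, 6 were called lower for STI571, where 128 of all 7916 genes were, and none higher. None of the 28 was called without the trend or the pairing. In the reported fit 24 were lower in both treated arrays (85.7%, against 26.5% of all genes). The median response of the 28 was −0.37 in SUP-B15 and −0.56 in BV-173. Of 20 mitosis genes none was called, and 11 were higher in both treated arrays (55%, against 28.8% of all genes). None was lower in both, against 26.5% of all genes, and the medians were 0.35 in SUP-B15 and 0.02 in BV-173. The part of cell cycle position in the values of the repair genes was not tested.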

How the data were processed

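Total RNA was taken from each of the 4 groups, biotin was the label, and each group had 1 Affymetrix array. The authors deposited 1 intensity per probe set, made with GCOS 1.3 per the submitters' processing notes. For the scaling target and the probe summary, the method is not stated in the labels. The intensities were taken as deposited, 24.5 (the 25th percentile of all signals) was added, and log2 values were taken. Probe sets with 1 gene symbol in the platform annotation (19064 of 22277) were kept if their signal was at or above the 50th percentile of 1 or more arrays, and the one with the highest mean log2 value stood for its gene. Probe sets of 7916 genes entered 1 limma fit (limma 3.58.1, R 4.3.3) with cell line and treatment as terms, a trended prior variance, and p-values adjusted by Benjamini-Hochberg (threshold 0.05). With 1 residual degree of freedom the errors follow the trend and not a gene's own spread. The cell line term pairs the treated and untreated array of a line, since both come from the same cells. The procedure was tested on simulated data whose noise followed the errors of the fit. Such data cannot show how calls fare where a gene's own spread departs from the trend. Other normalizations, pseudocounts, filters, probe set rules and fits were tried as alternatives.

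The repair genes, the other gene lists and the tests were chosen with earlier results of these data known. Values in all arrays are given for repair genes called in either comparison, the 3 highest and 3 lowest mean changes, the 4 genes furthest apart between the lines, the gene with the largest mean absolute change per pathway, and genes with opposed probe sets, and for up to 4 genes per other list. Promoter windows and chromosomes are from RefSeq (GRCh38.p14), and 27 of the 34 repair genes had a window. POLB, RPA2, RPA3, XRCC5, PRKDC, NBN and WRN had no entry in the promoter table. The deposited intensities carry no counts, so depth is not defined for them.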

Additional observations from a re-analysis of the deposited data

Results flagged for a closer look

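In 5 repair genes the responses to STI571 had opposite signs in the 2 lines, each at least 0.25 on the log2 scale, and the difference was not tested because each line has 1 pair of arrays. The response of SUP-B15 minus that of BV-173 was 1.66 for BRCA1, 1.06 for RAD54L, −0.95 for MSH3, 0.84 for APEX2 and −0.70 for APEX1. The second BRCA1 probe set and the second MSH3 probe set were each higher after STI571 in both lines.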

How the results depend on the processing

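No fit can leave out an array, because each group has 1, and without it no residual degree of freedom remains. The cell line pairing was part of the reported fit. Without it (no replicate block) none of the 34 repair genes and none of the 7916 genes was called for STI571 by limma (70 genes at an unadjusted p under 0.05), nor was any without the intensity trend (658 genes at an unadjusted p under 0.05). For the line, the fit without the treatment term called 6 of the 34 repair genes and 1460 of all 7916 genes. For STI571 1 repair gene, EXO1, was called after quantile normalization, with a pseudocount of 98 and with each probe set tested by itself. For the line 4 of 34 were called without the intensity trend, against 8 in the reported fit. Over all 7916 genes the line calls were then 629, against 2273. In SUP-B15 the number of genes at 2-fold was 2 with a pseudocount of 1 and with the mean of probe sets, 0 with a pseudocount of 98 and with the 75th percentile filter, 5 at 1.5-fold, and 2 with each probe set by itself, through BRCA1. In BV-173 it was 3 with a common median, 0 with a pseudocount of 98, 7 at 1.5-fold, and 2 with each probe set by itself, through RAD51C. The count by probe set was added after seeing the data. Some mean changes near 0 changed sign: RAD50 to 0.0168 with a pseudocount of 98, BRCA1 to 0.45 with the mean of probe sets and APEX2 to −0.014 with a common median. The BRCA1 value averages its kept probe sets, whose mean responses were −0.07 and 0.97. The 75th percentile filter left 24 repair genes and the use of gene-specific probe sets 23. Beyond the smaller number of genes there and the averaging of the BRCA1 probe sets, the cause of these shifts was not tested. Dim genes such as RAD54L and LIG4 have larger errors than bright ones.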
